A study of Mus musculus with 8 samples.

Results

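TRAV9-2, TRAV9-3 and TRAV9-4 are variable (V) gene segments of the mouse T cell receptor α (TRA) locus. They were followed here, with their copies in duplicated parts of the locus, through the TCR repertoire of CD8+ T cells. Every barcode was taken whose TRA chain carried a V name made of TRAV9, TRAV9D or TRAV9N and the ending -2, -3 or -4, and which was not marked as a multiplet. The rule found 11236 of 107882 TRA-bearing barcodes. A complete CDR3, the loop that contacts peptide, ends in phenylalanine (F) or tryptophan (W), and 10658 member cells had such an end, of 101723 cells with such an end in all. The other 578 member cells are described apart. Of the complete chains, 3786 cells had TRAV9D-3, 2891 TRAV9-2, 2072 TRAV9-4, 1505 TRAV9D-4, 398 TRAV9D-2 and 6 TRAV9N-4. No barcode was given the name TRAV9-3, TRAV9N-2 or TRAV9N-3.

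The study asked how PD-1, an inhibitory receptor, shapes CD8+ T cells in the thymus. Its mice were Pdcd1fl/fl controls and Pdcd1 cKO mice, in which the CD8 E8I-Cre deletes Pdcd1 in CD8+ T cells after positive selection, so that both groups carry the floxed alleles. CD8+ T cells came from the thymus and spleen at baseline, and from the thymus and tumor of mice bearing B16-OVA or B16-F10 melanoma. The data are 14 tables of single-cell TCR chains from 7 animals, an animal giving a thymus table and a second one from the spleen (mouse-155A and mouse-155C) or the tumor (mouse-164C, mouse-164B, mouse-160C, mouse-160B and mouse-160A). Animal and tissue were taken from the name each table was deposited under. The labels give neither genotype nor tumor model per animal, so the animals were not grouped, no test between groups was made, and each table is described with 95% exact binomial intervals that cover counting error only. A table held 2293 to 19839 cells with a complete TRA chain, and the median member cell had 1 to 3 TRA transcripts.

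A TRA chain is made in the thymus when a V segment is cut and joined to 1 of many joining (TRAJ) segments that lie downstream, with bases lost and added at the junction. The locus can rearrange again on the same chromosome, each time joining a V segment farther upstream to a TRAJ segment farther downstream. V segments also supply 2 of the loops that touch the MHC molecule, and the chain works only in a pair with a β (TRB) chain. In the reference strain a large part of the V cluster occurs in copies, whose names carry the letters D and N.

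The V segments differ by few bases where the reads fall. The V-aligned stretch of a member contig had a median of 69 bases, so it covered the end of framework 3 and the start of CDR3. In the last 69 bases of the gene, on the plus strand of chromosome 14 (build GRCm39), the 8 annotated members differed at 6 positions. The genes lie at chr14:53129643-53130075 (Trav9d-2), chr14:53157900-53158569 (Trav9d-3), chr14:53220658-53221317 (Trav9d-4), chr14:53828314-53828971 (Trav9-2) and chr14:53913598-53914087 (Trav9-4), and the TRAJ segments follow at chr14:54392462-54456299. The annotation has no Trav9-3. The last 69 bases of the V exon are shown because they are what the names rest on, with the 6 variable positions in capitals.
TRAV9D-2: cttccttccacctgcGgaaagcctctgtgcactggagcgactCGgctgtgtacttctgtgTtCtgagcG
TRAV9D-3: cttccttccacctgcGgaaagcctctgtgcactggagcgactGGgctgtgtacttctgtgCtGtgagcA
TRAV9D-4: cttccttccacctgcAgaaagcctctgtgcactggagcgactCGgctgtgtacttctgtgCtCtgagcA
TRAV9-2: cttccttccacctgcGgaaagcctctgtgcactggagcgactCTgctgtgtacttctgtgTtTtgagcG
TRAV9-4: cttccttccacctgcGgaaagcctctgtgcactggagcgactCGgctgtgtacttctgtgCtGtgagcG

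The N copies, Trav9n-2 at chr14:53440579-53441011, Trav9n-3 at chr14:53468890-53469559 and Trav9n-4 at chr14:53531798-53532487, had 0 differences from the D copy of the same number in this stretch. The names TRAV9D-2, TRAV9D-3 and TRAV9D-4 in the tables therefore cannot be told apart from the N copies over these bases, and each D name is read below as both copies. TRAV9-2 and TRAV9-4 each had a sequence of their own. TRAV9D-3 and TRAV9-4 differed at 2 positions, and TRAV9D-3 and TRAV9-2 at 5. Contigs with 100% identity to the assigned V gene made up 93.7% (TRAV9D-2) to 97.7% (TRAV9-2) of the annotated complete chains.

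The share of the V genes was even among the 7 thymi. TRAV9D-3 was the most used member, with 3.23% to 3.61% of TRA-bearing thymic cells (median 3.42%). TRAV9-2 had 1.97% to 2.67% (median 2.49%), TRAV9-4 1.66% to 2.30% (median 1.79%), TRAV9D-4 0.785% to 1.57% (median 1.31%) and TRAV9D-2 0.262% to 0.545% (median 0.370%). The order TRAV9D-3, TRAV9-2, TRAV9-4, TRAV9D-4, TRAV9D-2 held in each thymus, and the ranges of neighbours did not overlap except for TRAV9-2 and TRAV9-4. Together the members made up 8.20% to 10.4% of thymic TRA-bearing cells. TRAV9-1, the family gene outside the rule, had 1.26% to 1.97%.

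In the spleen the members took a larger share than in the thymus of the same animal. In mouse-155A they were 8.90% of thymic (95% interval 8.01% to 9.86%) and 11.9% of splenic cells (11.05% to 12.8%). In mouse-155C they were 8.20% (7.11% to 9.40%) and 11.6% (10.5% to 12.9%). Over cells, the intervals of thymus and spleen did not overlap in either animal. With each distinct TRA chain counted once, they did overlap in mouse-155C. The values there were 9.47% in the thymus (8.14% to 10.9%) and 11.8% in the spleen (10.5% to 13.2%). Overlap of intervals was not counted over all other TRAV genes. Over cells, TRAV9D-3 had 3.23% in the thymus (2.69% to 3.85%) and 4.37% in the spleen (3.85% to 4.94%) of mouse-155A. In mouse-155C it had 3.40% (2.70% to 4.23%) and 4.70% (3.95% to 5.55%), so that the intervals met or overlapped. There are 2 animals, and the difference was not tested.

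In the tumors the shares spread far more widely, and in both directions. TRAV9-4 had 8.22% of the cells in the mouse-160A tumor (7.21% to 9.32%) against 1.36% to 2.18% in the other 4 tumors. TRAV9-2 reached 4.87% in the mouse-160C tumor (4.36% to 5.42%) and 1.07% in the mouse-160A tumor. TRAV9D-4 ranged from 0.333% in the mouse-160A tumor to 2.97% in the mouse-160C tumor. TRAV9D-3 varied least in proportion, from 1.52% in the mouse-160A tumor to 4.45% in the mouse-164B tumor.

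**Figure D1:**
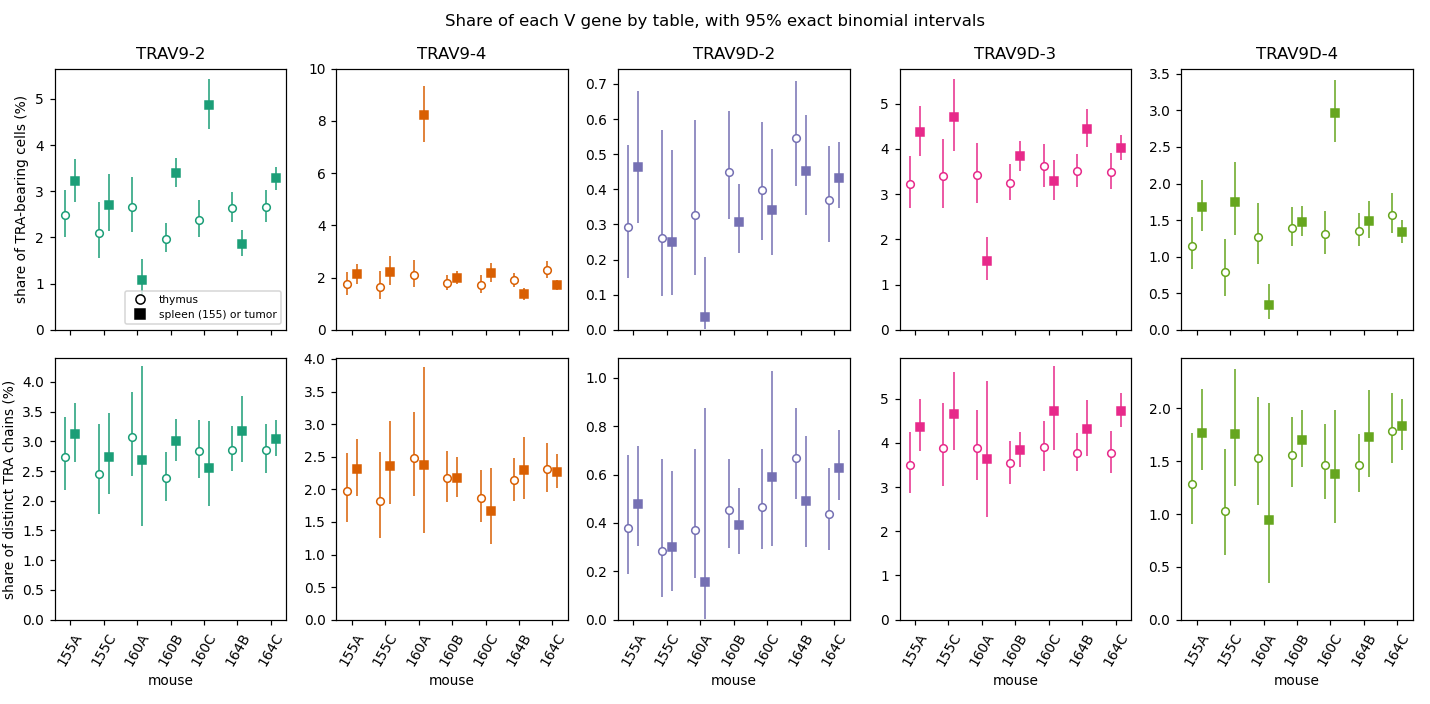
Share of each V gene (columns) in each animal (x axis) as a percentage of TRA-bearing cells (top row) and of distinct TRA chains (bottom row), with 95% exact binomial intervals, open circles for thymus and filled squares for spleen or tumor. The outlying tumor values of the top row, such as TRAV9-4 at 8.22% in the mouse-160A tumor, fall to the level of the other tables in the bottom row (2.37%).

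The second tissue was set against the thymus of the same animal as a ratio of shares, for genes with at least 20 cells in both tables together. Of 33 combinations of gene and animal, 6 were at least 1.5-fold higher in the second tissue and 3 at least 1.5-fold lower. In mouse-160A, TRAV9-4 was 3.88-fold higher in the tumor, where 12% of the 50 TRAV genes tested were that much higher and 76% that much lower. TRAV9-2 (ratio 0.402), TRAV9D-3 (0.444) and TRAV9D-4 (0.262) were among the lower ones there. In mouse-160C, TRAV9-2 (2.04-fold) and TRAV9D-4 (2.27-fold) were higher, beside 15.8% of 57 genes, while 57.9% were lower. In mouse-160B, TRAV9-2 was 1.72-fold higher, beside 12.9% of 62 genes higher and 9.68% lower. In the spleens, TRAV9D-4 of mouse-155C was 2.22-fold higher, beside 10.4% of 48 genes higher and 14.6% lower. TRAV9D-2 of mouse-155A was 1.58-fold higher from 11 thymic and 26 splenic cells, beside 12.1% of 58 genes higher and 6.9% lower. No member passed 1.5-fold in mouse-164B, where 11.3% of 62 genes were higher and 41.9% lower, or in mouse-164C, where 7.81% of 64 genes were higher and 18.8% lower.

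Counted once per distinct chain (V gene, J gene and CDR3 amino acid sequence), the tumor shares came close to those of the thymus. Of 33 combinations with at least 20 chains, 1 was then at least 1.5-fold higher and 1 lower, beside 5.43% and 10.9% of the 387 combinations over all TRAV genes. The higher was TRAV9D-4 in the mouse-155C spleen (1.71-fold), and the lower TRAV9D-4 in the mouse-160A tumor (ratio 0.617, from 6 tumor chains). TRAV9D-3 took a larger share of distinct chains in the second tissue in 6 of 7 animals, with ratios of 0.931 to 1.26 (median 1.20). TRAV9-4 did so in 3 of 7, with ratios of 0.896 to 1.29, and TRAV9-2 in 5 of 7, with ratios of 0.874 to 1.26. TRAV9-1, outside the rule, did so in 5 of 7, with ratios of 0.797 to 1.52 (median 1.15). These counts of animals were not made over all other TRAV genes, so they cannot be read as a trait of the members.

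Expanded chains made up 7.39% to 69.9% of the member cells of a tumor. Of the member chains, 21 reached 20 cells in a table, and all 21 did so in a tumor, none in a thymus or spleen table. Each chain counted once per table, these were 0.637% of the 3297 member chains in the tumors, beside 0.524% (129) of the 24626 chains of all other TRAV genes there, and 0.279% of 7521 beside 0.294% (174) of 59223 in all the tables. The mouse-160C tumor held 8 of the 21, with 617 of its 883 member cells (69.9%, against 58.04% in the other genes), and the mouse-160A tumor 1, with 208 of 302 (68.9% against 60.5%). The expanded chains were 29.0% of member cells in the mouse-164B tumor (42.8% in the other genes), 10.06% in the mouse-164C tumor (25.1%) and 7.39% in the mouse-160B tumor (12.4%). In the mouse-160A tumor, a TRAV9-4 chain joined to TRAJ33 (CDR3 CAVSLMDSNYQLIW) was found in 208 of the 222 TRAV9-4 cells. Of its 167 cells with a TRB chain, 158 had TRBV13-1, TRBJ1-3 and the CDR3 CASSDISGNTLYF.

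In the mouse-160C tumor, the leading chains of 4 members were large. A TRAV9-2 chain with TRAJ48 (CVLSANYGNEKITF) had 178 of 315 TRAV9-2 cells, and 119 of its 129 paired cells had TRBV13-1 with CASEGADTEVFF. A TRAV9D-4 chain with TRAJ45 (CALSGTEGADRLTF) had 125 of 192 cells, and 94 of 101 paired cells had TRBV13-1 with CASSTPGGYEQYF. A TRAV9D-3 chain with TRAJ31 (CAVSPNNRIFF) had 95 of 213 cells, and 38 of 47 paired cells had TRBV14 with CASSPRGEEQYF. A TRAV9-4 chain with TRAJ27 (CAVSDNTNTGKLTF) had 56 of 141 cells. Of its 43 paired cells, 33 had TRBV12-1 with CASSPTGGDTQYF, so that each of these 4 chains had 1 leading TRB partner.

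In mouse-164B, a TRAV9D-3 chain with TRAJ11 (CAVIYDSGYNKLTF) had 82 of 412 cells, with TRBV5 and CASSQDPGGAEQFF in 49 of 53 paired cells. A TRAV9D-4 chain with TRAJ40 (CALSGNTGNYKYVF) had 44 of 138 cells there, and a TRAV9D-2 chain with TRAJ26 (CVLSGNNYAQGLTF) 21 of 42. In mouse-164C, a TRAV9-2 chain with TRAJ35 (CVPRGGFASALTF) had 102 of 650 cells, with 15 different TRB chains among 41 paired cells, of which 26 had TRBV23 and TRBJ1-4 with 1 CDR3. In mouse-160B, a TRAV9-2 chain with TRAJ23 (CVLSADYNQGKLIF) had 87 of 454 cells, with 26 of 36 paired cells carrying TRBV12-1 and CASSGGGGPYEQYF.

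The nucleotide CDR3 of the 5 largest of these leaders is shown because it separates germline from junctional bases. Lower case marks bases that match the end of the V gene or a stretch of the J gene in the genome, and capitals mark the bases left between them, called inserted below.
TRAV9-4 TRAJ33 (mouse-160A tumor): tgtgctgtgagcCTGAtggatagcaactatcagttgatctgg
TRAV9-2 TRAJ48 (mouse-160C tumor): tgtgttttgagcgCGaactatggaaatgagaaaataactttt
TRAV9D-4 TRAJ45 (mouse-160C tumor): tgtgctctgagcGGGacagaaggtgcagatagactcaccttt
TRAV9-2 TRAJ35 (mouse-164C tumor): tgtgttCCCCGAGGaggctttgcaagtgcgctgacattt
TRAV9D-3 TRAJ31 (mouse-160C tumor): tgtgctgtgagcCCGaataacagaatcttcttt

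In the thymus and spleen tables the members were polyclonal by comparison. In the median thymus there were 1.16 cells per distinct chain for TRAV9-2, 1.15 for TRAV9-4, 1.20 for TRAV9D-3 and 1.15 for TRAV9D-4. The highest thymic count was 16 cells, of a TRAV9D-3 chain with TRAJ9 (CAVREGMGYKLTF) in mouse-160B. All 15 of its paired cells had TRBV17 with 1 CDR3, and the tumor of the same animal held 7 more cells with that TRA and TRB pair.

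The members differed sharply in the TRAJ segments they were joined to, and TRAV9-4, TRAV9-2 and the D names fell in the order of their place in the locus. TRAJ segments are numbered downwards from the V genes to the constant region, and were divided into TRAJ61 to TRAJ41, TRAJ40 to TRAJ21 and TRAJ20 to TRAJ1. TRAV9-4, the member closest to the TRAJ segments, had 43.3% of its 1456 chains (counted once per table) in the first block (40.7% to 45.9%). TRAV9-2, the next one upstream, had 23.1% of 1926 (21.2% to 25.0%). The D copies, farther still, had 9.05% of 2719 for TRAV9D-3 (8.00% to 10.2%), 7.62% of 328 for TRAV9D-2 (4.99% to 11.05%) and 5.99% of 1086 for TRAV9D-4 (4.65% to 7.57%). Over cells in place of distinct chains the D names stood in another order, with 14.02% for TRAV9D-4, 7.79% for TRAV9D-2 and 7.26% for TRAV9D-3. The 125 TRAV9D-4 cells of the mouse-160C tumor with TRAJ45 fall in this block. All other TRAV genes together had 23.7% of distinct chains. TRAV9-1, which lies upstream of TRAV9-2, had 16.8%.

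The far end of the TRAJ cluster showed the reverse. TRAJ20 to TRAJ1 made up 4.95% of TRAV9-4 chains and 14.1% of TRAV9-2 chains, but 34.5% of TRAV9D-4, 43.3% of TRAV9D-2 and 47.9% of TRAV9D-3 chains. In all 14 tables, TRAV9-4 had a larger share in the first block than TRAV9-2, and TRAV9-2 a larger one than TRAV9D-3 and TRAV9D-4. TRAV9D-3 and TRAV9D-4 had no fixed order (TRAV9D-3 higher in 10 of 14 tables, 3 of 7 thymi). Among the 63 TRAV genes with at least 50 chains, TRAV9-4 ranked 11, TRAV9-2 21, TRAV9D-3 46, TRAV9D-2 51 and TRAV9D-4 57 by the share in the first block, and the median gene had 13.6%.

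**Figure D2:**
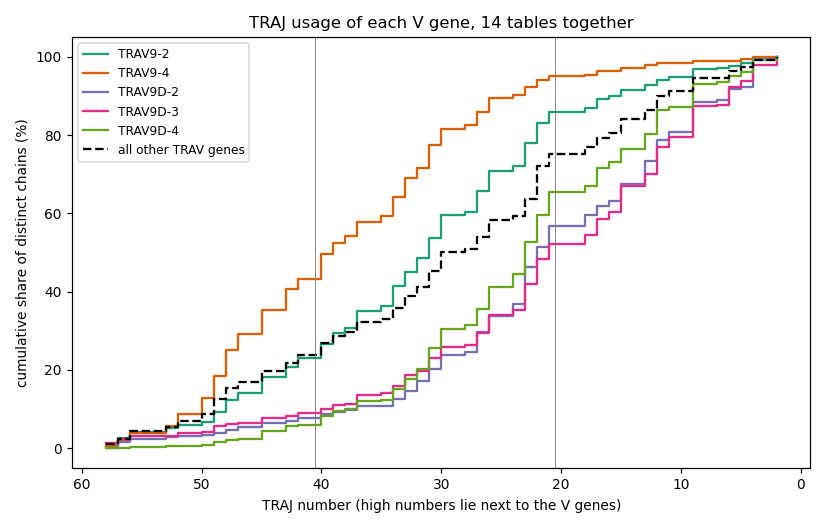
Cumulative share of distinct chains (y axis, percent, all 14 tables together) from the TRAJ segments next to the V genes (left, high numbers) to those next to the constant region (right), for the 5 members and, dashed, all other TRAV genes; vertical lines bound the 3 blocks. The TRAV9-4 curve rises first (43.3% by TRAJ41), the TRAV9-2 curve next (23.1%), and the 3 D names last (5.99% to 9.05%).

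Single TRAJ segments gave the same picture. The leading segments of TRAV9-4 were TRAJ48 (6.66%, against 2.69% in all other TRAV genes), TRAJ40 (6.32% against 3.10%) and TRAJ45 (6.11% against 2.90%). TRAV9-2 was joined most to TRAJ30 (5.97% against 4.93%), TRAJ23 (5.87% against 4.34%) and TRAJ27 (5.30% against 2.93%), the last above the other genes in 14 of 14 tables. TRAV9D-3 was joined most to TRAJ9 (7.80% against 3.27%) and TRAJ12 (7.02% against 3.59%), both above the other genes in 14 of 14 tables, and then to TRAJ23 (6.73%). TRAV9D-4 led with TRAJ23 (8.10%), TRAJ22 (7.00%) and TRAJ12 (5.99%), and TRAV9D-2 with TRAJ23 (9.45%), TRAJ9 (7.62%) and TRAJ4 (7.01%). TRAJ22, the leading segment of all other TRAV genes at 8.32%, had 5.16% over the members and was below the other genes in 14 of 14 tables.

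The CDR3 was of ordinary length in each member. The mean over distinct chains was 13.5 amino acids for TRAV9D-3 (SD 1.23), 13.6 for TRAV9D-4 (SD 1.25), 13.7 for TRAV9-2 (SD 1.23), 13.7 for TRAV9D-2 (SD 1.20) and 13.8 for TRAV9-4 (SD 1.25), against 13.7 in all other TRAV genes (SD 1.66). Lengths of 12 to 15 made up 89.8% of member chains and 83.4% of the others. Inserted bases averaged 3.26 to 3.35 per nucleotide sequence in the 5 genes, with a median of 3 in each, after leaving out chains that reached 20 cells in a table.

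Among TRB partners, TRAV9D-3 stood out with TRBV12-1. Of 2062 distinct TRAV9D-3 pairs, 315 had TRBV12-1, which is 15.3% (13.7% to 16.9%), against 7.80% of the 46876 pairs of all other TRAV genes. The share lay between 9.84% and 21.4% in the 14 tables (median 14.3%) and was above that of the other genes in each of the 14, and in 6 of them the lower bound of its interval was above it as well. It was 16.03% of 917 thymic pairs and 14.7% of 1145 pairs of the second tissues. Among 63 TRAV genes with at least 50 pairs, TRAV9D-3 ranked 1 for TRBV12-1, with 8.05% in the median gene. The TRBV12-1 share was similar over the TRAJ blocks of TRAV9D-3, with 13.98% in the first, 17.1% in the second and 13.85% in the third.

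**Figure D3:**
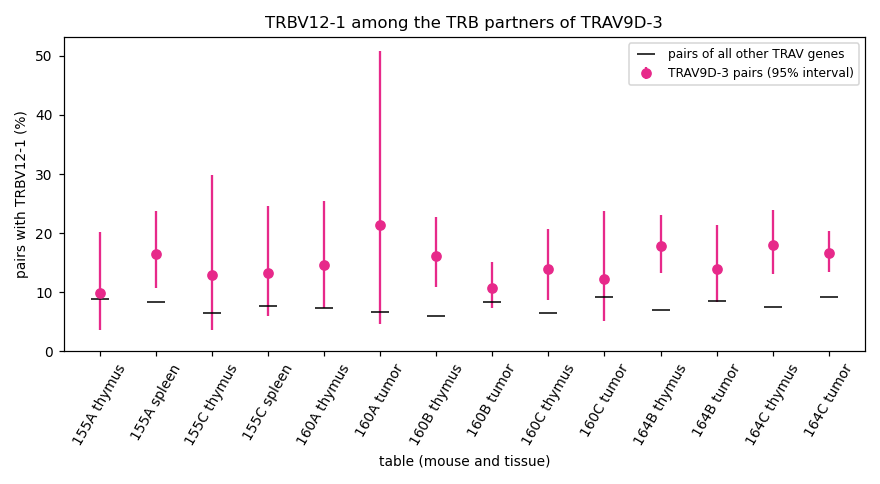
Share of distinct TRAV9D-3 pairs that had TRBV12-1 (circles, percent, bars for the 95% exact binomial interval) in each of the 14 tables, beside the same share among pairs of all other TRAV genes in that table (black dashes). The circles lie between 9.84% and 21.4%, each above the dash of its table (6.06% to 9.15%).

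The other members did not reach that level with TRBV12-1. It made up 9.26% of 1469 TRAV9-2 pairs (above the other genes in 9 of 14 tables), 9.08% of 1112 TRAV9-4 pairs (7 of 14) and 10.01% of 809 TRAV9D-4 pairs (9 of 14). The V ends of TRAV9-4 and TRAV9D-3 differ at 2 bases, and these include the last base, which can be lost at the junction. The TRAV9-4 interval of 7.46% to 10.9% did not overlap that of TRAV9D-3. TRAV9D-3 also had TRBV14 in 8.24% of pairs against 4.70%, above the other genes in 12 of 14 tables. In 4 of the tables the lower bound of its interval was above them as well. The TRBV14 share was 6.76% of 917 thymic pairs and 9.43% of 1145 pairs of the second tissues. TRBV13-2, the leading partner of the other TRAV genes at 12.1%, had 8.05% with TRAV9D-3 and was below the other genes in 13 of 14 tables. The pooled 12.1% includes TRAV11, the highest of 63 TRAV genes at 44.6%. The median gene had 10.3%, and TRAV9D-3 ranked 56.

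TRAV9-2 was paired most with TRBV13-2 (10.3%) and TRBV16 (10.1%, 8.65% to 11.8%, against 7.03%), the latter above the other genes in 11 of 14 tables. TRAV9-4 was paired most with TRBV13-2 (9.44%), TRBV12-1 and TRBV29 (8.45%). TRAV9D-2 had too few pairs for more than its leader, TRBV16, with 29 of 238 pairs (12.2%, 8.31% to 17.0%). Of the TRBJ segments, TRBJ2-7 led in each member, from 18.0% with TRAV9D-3 to 24.4% with TRAV9-2, against 19.1% in the other genes. The TRAV9-2 value (22.3% to 26.7%) was above the other genes in 13 of 14 tables.

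Many member chains recurred between animals. Of 5260 distinct member chains, 4107 were found in 1 animal, 769 in 2, 225 in 3 and 8 in all 7. Those in at least 2 animals were 21.9% of the member chains, beside 20.3% of the 42994 chains of all other TRAV genes. The share was 24.9% for TRAV9-2, 24.2% for TRAV9D-3, 20.3% for TRAV9-4, 17.6% for TRAV9D-4 and 12.3% for TRAV9D-2. The count of 1153 member chains in at least 2 animals depended on the settings. It was 406 with at least 2 transcripts per chain and 749 by nucleotide sequence of annotated barcodes. Without cells that share barcode parts with another table it was 896. These settings were tried for the members only. With the TRB chain added, 11 of 5671 pairs were found in 2 or more animals (0.194%), beside 0.286% of the 46571 pairs of all other TRAV genes. The 5 largest of the 11 had 158, 94, 55, 38 and 26 cells in 1 tumor and 1 cell in each further table that held them.

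Among chains that stayed under 20 cells in each table, those found in more animals had fewer inserted bases. The mean was 3.69 inserted bases for 3109 nucleotide sequences of chains in 1 animal, 2.74 for 944 in 2 animals and 2.26 for 653 in 3 or more. The share with no inserted base was 5.73%, 11.5% and 17.0% in the same order. An example is the TRAV9D-4 chain with TRAJ23 (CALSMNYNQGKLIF), with 23 cells in 7 animals and 11 tables and at most 6 in a table. It had 3 nucleotide sequences, and the commonest, in 18 of 20 annotated cells, had 0 inserted bases.
TRAV9D-4 TRAJ23: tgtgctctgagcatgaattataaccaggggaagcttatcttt

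**Figure D4:**
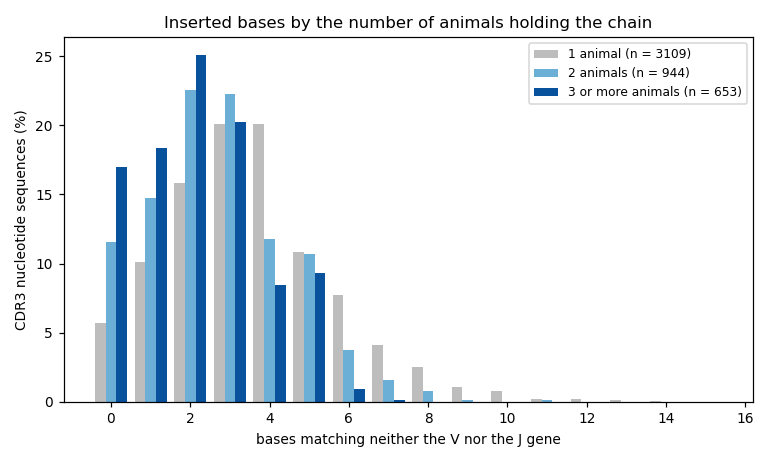
Distribution of inserted bases (x axis, bases matching neither the V nor the J gene) over the CDR3 nucleotide sequences (y axis, percent) of member chains found in 1, 2, or 3 or more animals, without chains that reached 20 cells in a table. Sequences with 0 inserted bases make up 5.73%, 11.5% and 17.0% of the 3 classes.

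Of the 8 chains found in all 7 animals, the 5 that were in the most tables are described. They included 4 that had 81 or more cells in 1 tumor. The TRAV9-4 chain with TRAJ33 that had 208 cells in the mouse-160A tumor was also in 53 cells of the other 6 animals, with 1 to 10 cells in a table. Of these 53 cells, 51 had a single TRA transcript, against a median of 4 in the tumor, and 9 had a TRB chain. All 51 annotated ones had the tumor's nucleotide sequence, 4 inserted bases included. In 20 of the 53, the second-round and third-round barcodes and the sublibrary were those of a tumor cell with the chain.

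The other 3 also had scattered cells, mostly with 1 transcript, but their tumor medians were lower, down to 1. The TRAV9-2 chain with TRAJ48 had 45 cells in animals other than mouse-160C, of which 41 had 1 transcript, against a tumor median of 3. Of the 43 annotated ones, 40 had the leading nucleotide sequence, and 17 of the 45 shared those barcode parts with a tumor cell. The TRAV9-2 chain with TRAJ35 had 39 cells outside mouse-164C, of which 36 had 1 transcript, but its tumor median was 1 as well. All 38 annotated ones had the same sequence with 8 inserted bases, and 7 of the 39 shared those barcode parts with a tumor cell. The TRAV9-2 chain with TRAJ27 (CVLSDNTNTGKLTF) had 81 cells in the mouse-160C tumor and 17 in other animals. Of these 17, 13 had 1 transcript, against a tumor median of 2, and 6 shared those barcode parts with a tumor cell. Whether the scattered cells belong to those animals or carry the chain from the tumor's cells was not tested.

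**Figure D5:**
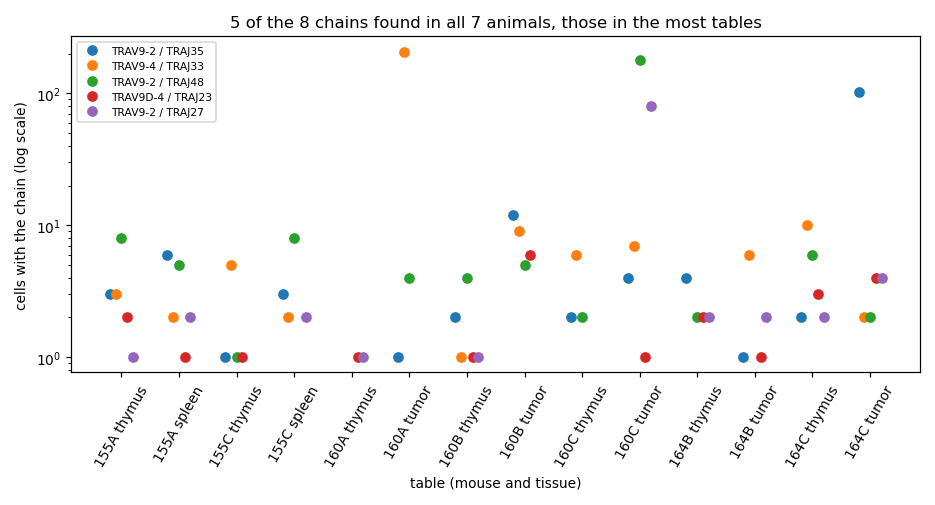
Cells with each of 5 of the 8 chains found in all 7 animals, those in the most tables (y axis, log scale; chains absent from a table are not drawn) in the 14 tables (x axis). All but 1 of the chains have 81 to 208 cells in 1 tumor and at most 12 in any table of another animal, and the TRAV9D-4 chain with TRAJ23 has at most 6 cells in any table.

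Within an animal, thymus and second tissue shared 11 to 146 member chains. In mouse-155A, 42 chains were shared with the spleen, which is 14.7% of the thymic and 7.23% of the splenic chains. Among the others the count was highest in mouse-164C with 146 chains, followed by 113 in mouse-160B, 79 in mouse-164B, 34 in mouse-160C, 16 in mouse-155C and 11 in mouse-160A. The thymus of an animal also shared chains with the second tissues of the other animals, for example 8 to 62 in mouse-155A and 10 to 121 in mouse-164C. Except in mouse-160B and mouse-164C, at least 1 such foreign table shared more chains with the thymus than the animal's own second tissue did. The second tissues held 62 to 1532 member chains, so these counts also move with table size. They were made for the members only, so they do not show whether the members differed from all other TRAV genes.

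With both chains required, 11 shared pairs remained, 7 of them in mouse-160B and none in mouse-155A, mouse-160C and mouse-164C. Pairs of all other TRAV genes were not counted in this way, so the spread over animals cannot be read as a trait of the members. The largest in mouse-160B was the TRAV9D-3 pair with TRAJ9 and TRBV17 described above, with 15 thymic and 7 tumor cells. In mouse-164B, a TRAV9D-3 chain with TRAJ17 and a TRB chain with TRBV1 had 1 thymic and 27 tumor cells. A TRAV9D-4 pair with TRAJ21 and TRBV5 (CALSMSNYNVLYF and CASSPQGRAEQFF) was in both tissues of both mouse-160A and mouse-160B, with 8 cells and 1 TRA nucleotide sequence in all.

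Most of the member cells without a complete CDR3 had a sequence that ran on from the V gene into the unrearranged genome. Of the 578, 449 belonged to 3 chains that carried the name TRAJ5, namely CAVSTQCVGL with TRAV9D-3 (281 cells in 14 tables), CVLSAQCVGL with TRAV9-2 (132 cells in 14 tables) and CAVSAQCVGL with TRAV9-4 (36 cells in 11 tables). Each had 1 nucleotide sequence of 31 bases in its annotated cells, and each equalled the genome read straight through the end of the V gene. They are shown with the 18 bases past the V gene in capitals, which begin with the recombination signal heptamer at which the segment is cut. For TRAV9D-3 the place of the D copy is given, but Trav9n-3 has the same V end and the same 39 bases past it.
TRAV9D-3 (chr14:53158557-53158587): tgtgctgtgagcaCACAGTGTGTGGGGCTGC
TRAV9-2 (chr14:53828959-53828989): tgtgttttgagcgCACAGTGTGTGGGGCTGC
TRAV9-4 (chr14:53914075-53914105): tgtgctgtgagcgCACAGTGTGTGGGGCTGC

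The contigs followed the genome well beyond these bases. A contig was counted when it held the last 12 bases of its V gene and the next 15 of the genome. Of 8905 annotated member barcodes, 375 did so (4.21%), and the match past the V gene ran on without a difference for a median of 151 bases. None of the 375 had a constant-region call, against 87.7% of the other member contigs, and 97.9% of them rested on 1 transcript, against 51.8%. A TRB chain was present in 47.5% of these barcodes and in 62.4% of the other member barcodes.

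These contigs were unevenly spread among the genes. They were 7.26% of TRAV9D-3 (235 of 3236), 4.63% of TRAV9-2 (110 of 2376) and 1.74% of TRAV9-4 (30 of 1727). TRAV9-1, outside the rule, had 9.89% (130 of 1315), above each member. Of 1256 annotated TRAV9D-4 barcodes and 304 of TRAV9D-2 there were 0. The floor taken for a count of 0 (3 cells) is 0.239% and 0.987%, and the upper bounds of the exact intervals are 0.293% and 1.21%. In the genome the 18 bases past the V gene were the same in all 5, but the bases beyond were not. The 39 bases past the V gene ended in ACAAAAACA in TRAV9D-3 and TRAV9-2, and in ACACAAACA in TRAV9-4, TRAV9D-2 and TRAV9D-4. Whether this bears on the shares was not tested. Over all other TRAV genes the share was 4.04%, and 27 of 63 V genes had at least 1 such contig.

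By tissue, they were 4.15% to 9.05% of member barcodes in the thymi (median 5.90%) and 1.16% to 4.64% in the second tissues (median 3.37%). The second tissue was lower than the thymus in 7 of 7 animals, and the same was seen over all other TRAV genes. Tumor tables also held the expanded chains, and the median member cell had 1 to 3 TRA transcripts by table. Their part in the difference was not tested.

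Of the V genes with at least 1% of cells in the median table, those whose shares ran most like the members' over the 14 tables were TRAV12-2 for TRAV9D-3 (Spearman's rho 0.714), TRAV8N-2 for TRAV9-2 (0.635), TRAV19 for TRAV9D-4 and TRAV9D-2 (0.587 for each) and TRAV6-6 for TRAV9-4 (0.574). The second in order were TRAV10 for TRAV9D-3 (0.662), TRAV3-1 for TRAV9-2 (0.609) and for TRAV9-4 (0.424), TRAV9-2 for TRAV9D-4 (0.565) and TRAV12-2 for TRAV9D-2 (0.367). The 14 points come from 7 animals and from sublibraries that all tables share, and shares within a table sum to the same total. The values are descriptions only.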

How the data were processed

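Single-cell TCR libraries were made with the Parse Evercode method from 8 multiplexed sublibraries, each holding cells of all 14 tables. The authors assembled and annotated the chains (genome build GRCm39 per the submitters' processing notes), and neither pipeline version nor germline V(D)J set is named in the sources used here. Of the values in the deposited barcode tables, the transcript count of each chain and the multiplet mark were used. The deposited annotation tables hold contigs with V identity in percent, and were held in part for mouse-160B thymus (92.2% of TRA-bearing barcodes), mouse-164B thymus (39.1%) and mouse-164C tumor (29.2%). The deposited clonotype tables were not used.

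Multiplet-marked barcodes were left out. Trailing digit suffixes were removed from segment names. Shares have exact (Clopper–Pearson) 95% intervals for counting error only (Python 3.11.15, SciPy 1.17.1, pandas 2.3.3). A distinct chain is a V gene, J gene and CDR3 amino acid sequence, counted once per table. Inserted bases are those left after the longest match to the last 13 bases of the V gene and the longest suffix found in the J gene, a minimum estimate. Gene positions and flanks came from GRCm39 with GENCODE annotation. The fold calls and the count of inserted bases were tried on simulated data in separately written code, not in the code that made the results.

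The genes named were the members and TRAV9-1, the 3 leading TRAJ and TRBV per gene, leading chains of at least 3 cells in a table (the larger ones in full), the 5 chains in the most animals (ties by number of tables, then cells), the 3 leading incomplete chains and the 2 most similar V genes. The members and lists were chosen with earlier results of these data known. No group was assigned, so there was no test between groups.

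Marker chains were counted once over complete chains. TRAV11 or TRAV11D with TRAJ18, as in invariant NKT cells, had 3798 cells, TRAV1 with TRAJ33, as in MAIT cells, had 1, and 0 chains were named outside TRAV and TRBV.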

Additional observations from a re-analysis of the deposited data

Results flagged for a closer look

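The second TRA chain of a barcode was used in no comparison. There, 1534 barcodes without a multiplet mark carried a member V gene, far above the 3 cells taken as the floor of a count of 0, and 349 of them had a member as first chain too. The value is given because it lies outside the columns the comparisons used.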

How the results depend on the processing

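The median share of all members over the 14 tables (10.2%) was 11.02% with each distinct chain counted once per table and 11.003% without the most frequent chain of each table, and 10.1% to 10.3% when each sublibrary was left out in turn. The 9 combinations of gene and animal that lay 1.5-fold or more apart were 15 when cells were weighted by TRA transcripts, 15 over barcodes with a TRB chain and 2 over distinct chains, and 8 to 11 without each sublibrary. The difference between TRAV9-4 and TRAV9D-3 in chains with TRAJ61 to TRAJ41 (34.2 percentage points) was 31.0 over cells, and the TRBV12-1 share of TRAV9D-3 pairs (15.3%) was 13.5%. The 1153 chains in 2 or more animals were 406 with at least 2 transcripts per chain, 749 by nucleotide sequence and 11 as TRA and TRB pairs. The 441 chains shared within an animal were 119, 233 and 11. Without cells that share barcode parts with another table they were 896 and 338. The 6 of 7 animals with a higher member share in the second tissue were 5 to 7 under all of them. The animals were not the same ones throughout. By cells, mouse-164B was lower (ratio 0.965) and mouse-160A higher (1.14). By distinct chains, mouse-160A was lower (0.861) and mouse-164B higher (1.10). The count was not made over all other TRAV genes. By gene, TRAV9-4 was higher in 3 of 7 second tissues by distinct chains and in 5 of 7 by cells, and TRAV9D-2 in 4 and in 2, so that both changed sides. TRAV9D-2 was higher in 1 of 7 with at least 2 transcripts or with cells weighted by transcripts. In the TRAJ61 to TRAJ41 block, TRAV9D-4 had 14.02% over cells and 5.99% over distinct chains, and passed TRAV9D-3 (7.26% and 9.05%). Thymus and second tissue were set against each other within each animal, with no test. By table, 34.1% to 65.96% of member cells rest on 1 transcript, the nucleotide counts cover only the annotated barcodes, and intervals treat cells of 1 clone as independent.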
